A study of Homo sapiens with 12 samples.

Results

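A set of 8 androgen-regulated genes of the prostate was followed in human prostate cancer cells selected for resistance to docetaxel: KLK3, KLK2, TMPRSS2, FKBP5, PMEPA1, SLC45A3, STEAP2 and TRPM8. They were chosen by name, with every probe set that the array annotation gives to them, whatever its value. On the smaller array type 6 of the 8 genes had 10 of the 22215 probe sets, and on the larger type all 8 had 22 of the 54613. SLC45A3 and STEAP2 had probe sets on the larger type only.

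Docetaxel is a taxane that stabilises microtubules and is given in advanced prostate cancer. The series compared the parental line DU145 with its docetaxel-resistant derivative DU145-DR, and the parental line 22Rv1 with 22Rv1-DR, on Affymetrix arrays with 3 replicates in each of the 4 groups. DU145 is an established line from a brain metastasis of prostate cancer, and 22Rv1 is an established line from a human prostate cancer grown as a xenograft. Parental cells had grown in RPMI medium with serum and without the drug, and resistant cells in the same medium with docetaxel, so each comparison joins resistance with exposure. The serum, and with it whatever hormone it carried, was common to all 4 groups. The labels say that the resistant cells were selected, without the doses or times, and not whether each line is 1 clone.

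Replicates 1 and 2 of each group were on the smaller array type (8 arrays) and replicate 3 on the larger one (4 arrays). The labels do not say whether replicates were separate cultures, so the p-values measure the spread between these arrays, which may be technical. Values are probe-set intensities on a linear scale. In the 8-array table the 5th percentile of an array was 35.75 to 38.59 in DU145 and DU145-DR and 11.47 to 12.3 in 22Rv1 and 22Rv1-DR, and the median was 183.5 to 205.1 against 59.3 to 69.07. Intensities of the lines can therefore not be set against each other directly there. In the 4-array table the medians lay between 37.53 and 39.67. Among 8 markers of luminal prostate epithelium, 5 lay above the 40th percentile on both DU145 arrays of the 8-array table, 4 on the DU145-DR, 6 on the 22Rv1 and 5 on the 22Rv1-DR arrays.

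The androgen receptor is a hormone-activated transcription factor. On binding androgen it enters the nucleus, binds DNA at paired copies of a short element and raises transcription of a set of prostate genes, helped by chaperones before binding and by pioneer factors at the chromatin. KLK3 (prostate-specific antigen) and KLK2 are secreted serine proteases of the prostate and the best known of these genes. The glucocorticoid receptor recognises nearly the same element and can drive FKBP5 and other genes of the set.

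The sequences just before 3 of the genes are shown: KLK3 and KLK2 because they are neighbours with similar upstream sequence, and PMEPA1 because it had the largest change. Each is the 250 bases upstream of the gene start in RefSeq on GRCh38.p14, read 5′ to 3′ on the gene's strand. An entry was found for 7 of the 8 genes, all but TMPRSS2. Capitals mark the best match to the androgen response element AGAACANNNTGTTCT, searched on both strands and scored over its 12 fixed positions; PMEPA1 is given without capitals.

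KLK3, chr19:50854665-50854914, plus strand: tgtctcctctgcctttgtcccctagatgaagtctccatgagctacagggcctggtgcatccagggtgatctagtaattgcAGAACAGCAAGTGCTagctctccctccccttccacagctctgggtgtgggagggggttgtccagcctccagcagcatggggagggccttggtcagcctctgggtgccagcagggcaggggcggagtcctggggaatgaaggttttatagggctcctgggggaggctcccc

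KLK2, chr19:50873189-50873438, plus strand: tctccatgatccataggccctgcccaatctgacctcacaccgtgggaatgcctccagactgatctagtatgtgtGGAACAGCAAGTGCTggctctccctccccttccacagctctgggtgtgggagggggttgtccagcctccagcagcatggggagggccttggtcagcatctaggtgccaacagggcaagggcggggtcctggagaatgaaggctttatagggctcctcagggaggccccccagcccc

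PMEPA1, chr20:57711473-57711722, minus strand: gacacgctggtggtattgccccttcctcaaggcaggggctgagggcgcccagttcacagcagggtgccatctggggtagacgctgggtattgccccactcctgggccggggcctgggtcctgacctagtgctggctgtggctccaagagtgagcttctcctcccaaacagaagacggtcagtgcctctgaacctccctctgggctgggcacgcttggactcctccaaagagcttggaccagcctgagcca

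In KLK3 the marked bases matched the element at 10 of 12 positions, at chr19:50854745-50854759, which is 170 to 156 bases upstream of the start. Of 35116 RefSeq windows of the same length, 1.18% held a match of 10 or more. In KLK2 the marked bases lay 176 to 162 bases upstream, at chr19:50873263-50873277, and matched at 9 positions, as did the best match of 9.17% of the windows or a better one. The marked stretches of KLK3 and KLK2 were identical at 14 of 15 bases and the windows were 80.2% identical over an alignment of 263 columns. KLK3 and KLK2 lie 12674 bases apart on chromosome 19. The PMEPA1 window matched at 7 positions at best, and 85.4% of all windows reached 7. The best matches were 9 for FKBP5, 9 for TRPM8, 7 for STEAP2 and 6 for SLC45A3. The half-site AGAACA, or TGTTCT on the other strand, stood in the KLK3 window and in 12.4% of all windows, and in none of the other 6. These letters describe the windows shown and say nothing about elements farther away.

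The measured levels are described gene by gene, beginning with the secreted proteases. KLK3, on probe set 204582_s_at, gave intensities of 131.6 and 57.3 in DU145, 122.8 and 68.1 in DU145-DR, 390.7 and 268.7 in 22Rv1, and 226.0 and 146.0 in 22Rv1-DR. Both parental 22Rv1 arrays were above both resistant ones, and the DU145 pairs overlapped. A second KLK3 probe set, 204583_x_at, gave 347.3 and 195.4 in 22Rv1 against 160.9 and 95.01 in 22Rv1-DR, again without overlap. The differences in the 22Rv1 pair were -0.78 ± 0.395 (log2(intensity + 16), SE, n = 2 arrays a group; limma, Benjamini-Hochberg adjusted p = 0.435) and -0.98 ± 0.342 (adjusted p = 0.191). Neither passed the threshold of 0.05. Of all tested probe sets 50.6% likewise had groups that did not overlap in the 22Rv1 pair, and 41.7% in the DU145 pair.

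The third pair of arrays went the other way for KLK3. Probe set 204582_s_at read 69.1 in 22Rv1 and 108.4 in 22Rv1-DR, a difference of 0.55 on the log2 scale, and 204583_x_at read 44.3 and 61.4, a difference of 0.36. On the DU145 and DU145-DR arrays these probe sets read between 20.7 and 33.4. The remaining probe set, 231629_x_at, lay between 108.4 and 129.8 in all 4 groups, with no separation of the lines. The direction of KLK3 in 22Rv1-DR was thus lower on replicates 1 and 2 and higher on replicate 3.

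KLK2, the second secreted protease, gave 168.9 and 86.2 in DU145, 164.3 and 86.8 in DU145-DR, 885.3 and 826.0 in 22Rv1, and 1218 and 1090 in 22Rv1-DR on 209854_s_at. Both 22Rv1-DR arrays were above both 22Rv1 arrays. The difference was 0.42 ± 0.337 (adjusted p = 0.746), and the third pair, 304.4 in 22Rv1 and 760.1 in 22Rv1-DR, gave 1.28. In that pair 1.66% of the 41032 probe sets of the larger array with 1 gene name were higher by 1 or more. On the third arrays DU145 read 22.6 and DU145-DR 18.3.

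The 2 other KLK2 probe sets of both array types had the same sign in 22Rv1-DR. On 210339_s_at the values were 227.5 and 191.3 in 22Rv1 and 344.9 and 245.6 in 22Rv1-DR (0.45 ± 0.275, adjusted p = 0.574; 1.30 on the third pair, from 78.2 to 215.3). On 209855_s_at they were 47.5 and 65.8 against 108.4 and 133.4 (0.92 ± 0.285, adjusted p = 0.142; 0.77 on the third pair, from 47.8 to 93.1). KLK2 was thus higher in 22Rv1-DR in 3 of 3 pairs on the 3 probe sets of both array types, without passing the test on any of them. These 3 probe sets read the same arrays and are not independent. In the DU145 pair the differences were -0.01, -0.07 and -0.16 for KLK2 and 0.06 and -0.16 for KLK3, all within 1 standard error of 0 and with adjusted p from 0.8747 to 0.9965. Their signs changed when single arrays were left out. On the larger array the KLK2 probe set 1555545_at stayed between 12.3 and 15.2 in all groups.

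**Figure D1:**
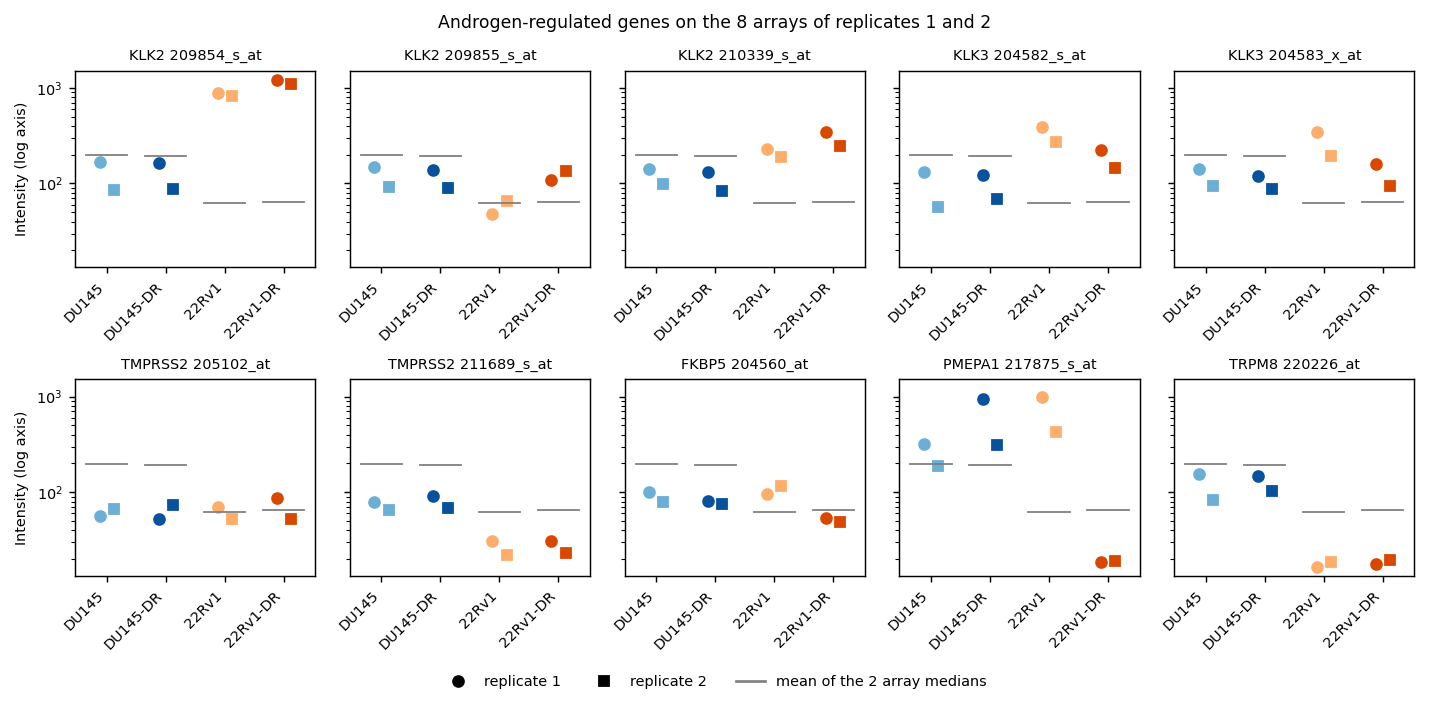
Probe-set intensity (log axis) of KLK2, KLK3, TMPRSS2, FKBP5, PMEPA1 and TRPM8 on the 8 arrays of replicates 1 and 2, 1 point per array, by group. PMEPA1 lies at 996.0 and 421.7 in 22Rv1 and at 18.8 and 19.0 in 22Rv1-DR. The DU145 arrays have a higher floor than the 22Rv1 arrays, so heights are to be read within a line.

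TMPRSS2 encodes a membrane-anchored serine protease whose promoter is part of a frequent gene fusion in prostate cancer. On the 8 arrays both of its probe sets fell below the intensity filter used for testing. Probe set 205102_at gave 56.9 and 67.2 in DU145, 52.0 and 74.0 in DU145-DR, 70.0 and 53.1 in 22Rv1, and 86.8 and 52.3 in 22Rv1-DR. Probe set 211689_s_at read 64.9 to 91.1 on the DU145 and DU145-DR arrays and 21.9 to 30.7 on the others. No group mean was above the filter (the 40th percentile of all values, an intensity of 80.4), so TMPRSS2 was not among the 14323 probe sets tested. That filter is common to both lines, whose array medians differ. On the 22Rv1 and 22Rv1-DR arrays 205102_at ranked between the 47.88th and 53.22nd percentile, near the middle of each array. There 211689_s_at ranked between the 28.81st and 37.06th. Without the filter, among 19033 probe sets, the 22Rv1 pair gave 0.12 ± 0.25 on 205102_at and 0.03 ± 0.201 on 211689_s_at, each with an adjusted p of 1.

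The larger array type holds a further TMPRSS2 probe set, 226553_at. It read 41.9 in DU145, 45.9 in DU145-DR, 474.4 in 22Rv1 and 226.0 in 22Rv1-DR. In the 22Rv1 pair the difference was -1.02 on the log2 scale, from 1 array a group and without a test. Among the 41032 probe sets of that table with 1 gene name, 2.49% were lower by 1 or more in 22Rv1-DR. Probe set 205102_at gave -0.34 in the same pair, from 85.0 to 63.6.

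FKBP5 is a cochaperone of steroid receptors in the FK506-binding family and is induced by androgen and by glucocorticoid. Its probe set 204560_at gave 101.1 and 79.3 in DU145, 81.6 and 74.5 in DU145-DR, 97.0 and 117.0 in 22Rv1, and 53.8 and 48.8 in 22Rv1-DR. The 22Rv1 pairs did not overlap, and the DU145 pairs did. In 22Rv1-DR FKBP5 fell by 0.87 ± 0.198 on the log2 scale, with an adjusted p of 0.04998. The call did not hold without any 1 of the 4 22Rv1 and 22Rv1-DR arrays (adjusted p from 0.1992 to 0.3968), or without DU145 replicate 1 or 2 (0.05507).

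On the third pair the same FKBP5 probe set went from 82.7 in 22Rv1 to 40.5 in 22Rv1-DR, a difference of -0.80. The other 2 FKBP5 probe sets of the larger array differed less: 224840_at read 4040 in 22Rv1 and 3566 in 22Rv1-DR (-0.18), and 224856_at read 1342 and 955.4 (-0.48). In the DU145 pair the same 2 probe sets gave larger differences, from 1898 to 781.4 (-1.26) and from 600.5 to 207.9 (-1.46). Of the 41032 named probe sets of that table, 5.51% were lower by 1 or more in DU145-DR. The FKBP5 probe set of both array types gave no such difference in DU145-DR (-0.03 on the third pair, and -0.17 ± 0.198 with adjusted p = 0.757 on the 8 arrays).

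PMEPA1 encodes a membrane protein that is induced by androgen in the prostate and by TGF-beta in many cells, and that dampens TGF-beta signalling by binding SMAD proteins. On 217875_s_at it gave 317.4 and 188.7 in DU145, 935.8 and 315.2 in DU145-DR, 996.0 and 421.7 in 22Rv1, and 18.8 and 19.0 in 22Rv1-DR. Both 22Rv1-DR arrays stood far below both 22Rv1 arrays, at about the 25th percentile of their own arrays (19.9 and 19.7), which is near the floor. In 22Rv1-DR PMEPA1 fell by 4.25 ± 0.532 on the log2(intensity + 16) scale (adjusted p = 0.00269), which is 19.1-fold on that scale. Because the low values sit near the floor, the size depends on the constant added: the difference was -5.03 with 1 and -3.11 with 64.

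The third pair held 3 probe sets of PMEPA1, and all 3 were high in 22Rv1 and low in 22Rv1-DR. They went from 2369 to 28.6 (-5.74), from 6700 to 49.5 on 222449_at (-6.68) and from 8540 to 36.5 on 222450_at (-7.35). In 22Rv1 the last of these ranked at the 99.46th percentile of its array, and in 22Rv1-DR at the 49.2nd. PMEPA1 was lower in 22Rv1-DR in 3 of 3 pairs.

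In the DU145 lines PMEPA1 pointed the other way. The ranges of DU145-DR and DU145 overlapped, with 315.2 on the lower resistant array and 317.4 on the higher parental one, and the difference of 1.10 ± 0.532 did not pass (adjusted p = 0.268). Without DU145-DR replicate 2 it was 1.87 with an adjusted p of 0.033. The third pair gave 1.32, from 300.2 to 770.7, then 1.43, from 861.1 to 2353, and 1.09, from 1479 to 3169, and 5.97% of the 41032 named probe sets were higher by 1 or more. The change in the 22Rv1 pair minus that in the DU145 pair was -5.36 ± 0.752 (adjusted p = 0.00491), and it was past the threshold in every alternative that was run.

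**Figure D2:**
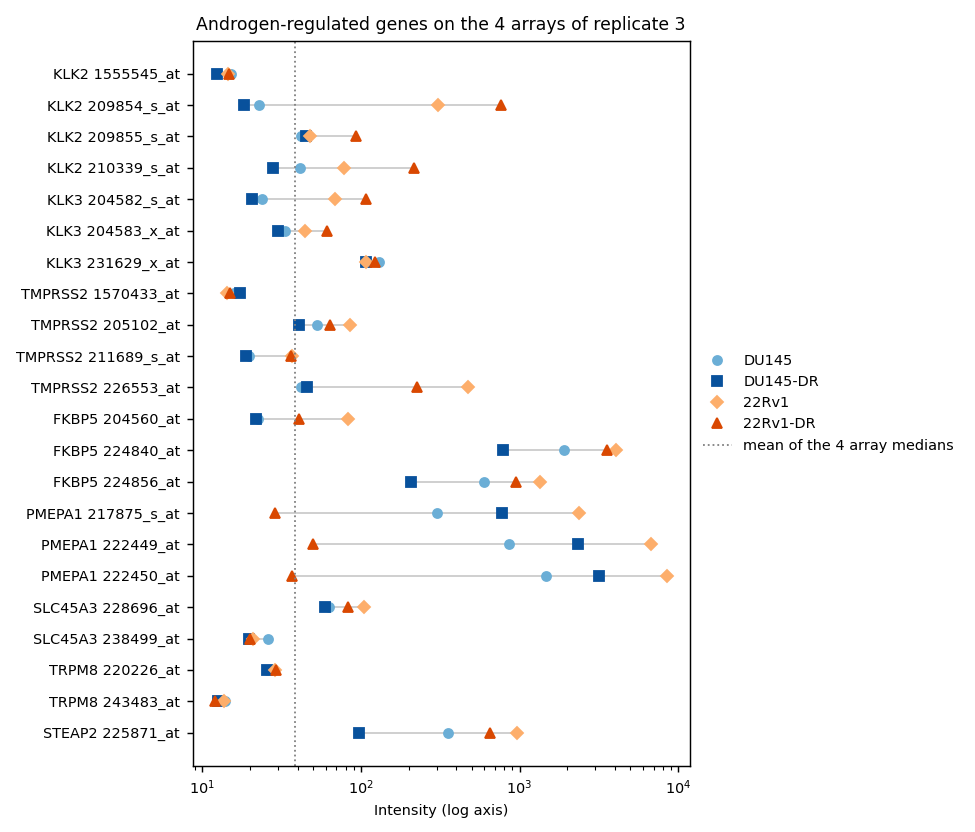
Probe-set intensity (log axis) of all 8 genes on the larger array type, 1 array per group (replicate 3), with no error because there is 1 array. The 3 PMEPA1 probe sets run from 2369 to 8540 in 22Rv1 and from 28.6 to 49.5 in 22Rv1-DR. KLK2 on 209854_s_at is at 304.4 in 22Rv1 and 760.1 in 22Rv1-DR.

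SLC45A3, also known as prostein, is a membrane transporter of prostate epithelium and another fusion partner in prostate cancer. On 228696_at it read 63.1 in DU145, 59.3 in DU145-DR, 104.0 in 22Rv1 and 82.7 in 22Rv1-DR, and 238499_at stayed between 19.7 and 25.8. The difference in the 22Rv1 pair was -0.28 on 228696_at. STEAP2, a metalloreductase of the cell membrane and of endosomes, read 354.6 in DU145, 97.0 in DU145-DR, 962.1 in 22Rv1 and 652.6 in 22Rv1-DR. It was lower by 1.71 on the log2 scale in DU145-DR and by 0.55 in 22Rv1-DR, from 1 array a group.

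TRPM8 is a cation channel opened by cold and menthol that is abundant in prostate epithelium. On 220226_at it read 154.3 and 83.3 in DU145, 147.0 and 101.8 in DU145-DR, and between 16.6 and 19.7 on the 4 arrays of 22Rv1 and 22Rv1-DR. The resistant and parental ranges overlapped in both lines, and the differences were 0.09 ± 0.281 (adjusted p = 0.961) and 0.05 ± 0.281 (adjusted p = 1). On the third arrays it lay between 25.6 and 29.2 in all 4 groups, and its other probe set at 13.9 or less.

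Counted together, 8 probe sets of 5 genes were tested. In the 22Rv1 pair 2 of the 8 passed, PMEPA1 and FKBP5, both lower, where 4.21% of all 14323 tested probe sets passed, 2.27% higher and 1.94% lower. In the DU145 pair 0 of 8 passed by limma, where 9.46% of all did (4.77% higher and 4.69% lower), and 0 of the 8 had an unadjusted p under 0.05. The difference between the lines' changes passed for 1 of 8, PMEPA1, against 6.76% of all (3.74% positive and 3.02% negative). The median difference over the 5 genes tested, 1 probe set a gene, was -0.781 in the 22Rv1 pair and 0.0551 in the DU145 pair, where the medians of all probe sets tested were 0.0115 and -0.00781. The value of -0.781 is that of KLK3, which had the opposite sign on the third pair. Over the 8 genes on the third pairs the medians were -0.23 and -0.0937, beside 0.0199 and -0.0209 for all. The DU145 and 22Rv1 comparisons share no array, but they share the fitted spread.

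**Figure D3:**
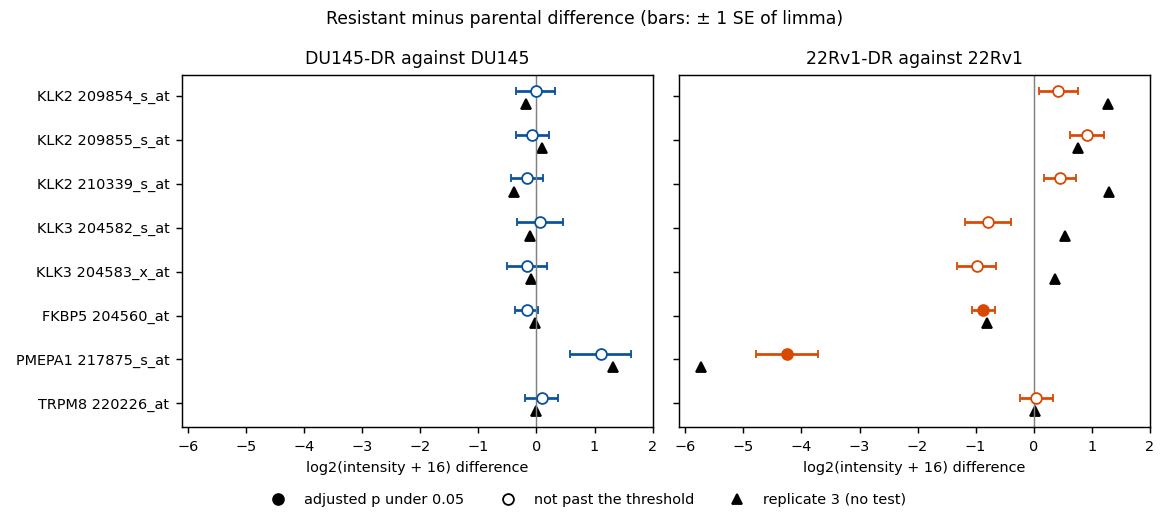
Resistant minus parental difference on the log2(intensity + 16) scale for each probe set, with bars of 1 standard error of the limma fit for replicates 1 and 2 (n = 2 arrays a group) and the difference of the third pair as a triangle without a bar. PMEPA1 lies at -4.25 in the 22Rv1 pair and at 1.10 in the DU145 pair. The KLK3 points of the third pair lie above 0 in 22Rv1 while the fitted values lie below.

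The parental lines were compared next. Over all tested probe sets the median of 22Rv1 minus DU145 was -1.35 in the 8-array table, where the floors of the arrays differ, and 83.3% of them passed, 79.8% lower and 3.46% higher. Of the 8 probe sets of the androgen-regulated genes 7 passed, a share near that of all, 5 higher and 2 lower as fitted. The 2 lower ones, TRPM8 and KLK2 on 209855_s_at, had 22Rv1 means of 5.075 and 6.171, under the filter cutoff of 6.59. Their DU145 means were 7.023 and 7.064. TRPM8 was above the cutoff only in DU145 and DU145-DR, whose arrays have the higher floor, so its call cannot be separated from that floor. After quantile normalization 7 of 8 passed, all higher, but these were not the same 8. TRPM8 was not among them, a TMPRSS2 probe set was, and KLK2 on 209855_s_at did not pass there (0.57, limma, adjusted p = 0.08865). That TMPRSS2 probe set was thus among the 7 that passed. Without the filter and as fitted, TMPRSS2 differed by -0.01 ± 0.25 on 205102_at (limma, adjusted p = 0.959). On 211689_s_at it differed by -1.07 ± 0.201 (limma, adjusted p = 0.00194). Read relative to the median of -1.35, KLK2 was higher in 22Rv1 by 4.02 on 209854_s_at and by 2.09 on 210339_s_at, KLK3 by 3.06 and 2.42, PMEPA1 by 2.70 and FKBP5 by 1.57. As fitted, KLK2 was 2.66 ± 0.337 higher on 209854_s_at (limma, adjusted p = 0.000142) and KLK3 1.71 ± 0.395 higher on 204582_s_at (limma, adjusted p = 0.00354). PMEPA1 was 1.35 ± 0.532 higher (adjusted p = 0.0408), and without DU145 replicate 2 that p was 0.214 and without 22Rv1 replicate 1 it was 0.2531.

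Some readings between the lines turned on the scale. KLK2 on 209855_s_at was lower in 22Rv1 by 0.89 ± 0.285 as fitted (adjusted p = 0.0173), and 0.57 higher after quantile normalization. FKBP5 differed by 0.21 ± 0.198 as fitted (adjusted p = 0.333), and by 1.62 after quantile normalization (adjusted p = 0.0002512). TRPM8 was 1.95 lower in 22Rv1 as fitted, 0.596 lower relative to the median of all probe sets, and 0.10 higher in the 4-array table. With quantile normalization 6536 of 13044 probe sets passed in place of 11925 of 14323, 3528 of them higher and 3008 lower.

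The 4-array table, whose arrays had like distributions (median difference -0.0113), also had most of these genes higher in 22Rv1, without a test. There 22Rv1 exceeded DU145 by 3.05 for KLK2 on 209854_s_at and by 3.08 for TMPRSS2 on 226553_at. It exceeded DU145 by 2.92, 2.94 and 2.52 for PMEPA1 and by 1.08 to 1.36 for FKBP5. For STEAP2 the excess was 1.40, for KLK3 1.10 and 0.29, and for SLC45A3 0.60. The other probe sets of these genes were nearer 0: 0.72 and 0.15 for KLK2 on 210339_s_at and 209855_s_at and -0.03 on 1555545_at, -0.23 for KLK3 on 231629_x_at, and -0.18 for SLC45A3 on 238499_at. For TMPRSS2 they were 0.56, 0.57 and -0.07. Over the 41032 named probe sets of these arrays 8.17% were higher in 22Rv1 by 1 or more and 7.66% lower. In the ranks within each array KLK2 on 209854_s_at stood at the 88.19th to 91.5th percentile on the 22Rv1 and 22Rv1-DR arrays of replicates 1 and 2, and at the 34.42nd to 45.92nd on the DU145 and DU145-DR arrays.

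**Figure D4:**
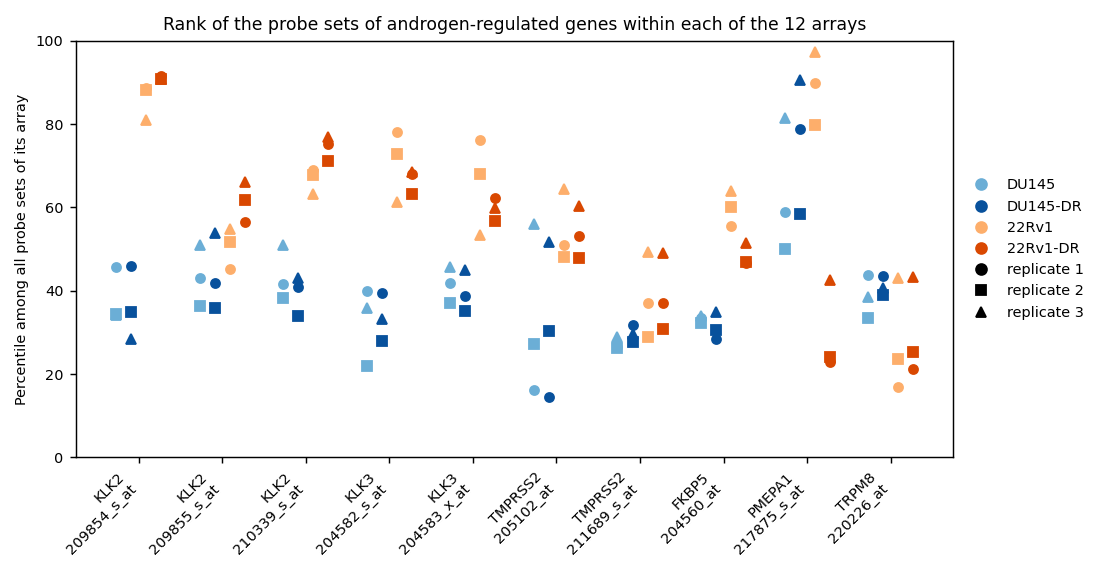
Percentile rank of each probe set among all probe sets of its own array, by group and replicate. The larger array of replicate 3 holds other probe sets, so its ranks are not on the same scale as those of replicates 1 and 2. KLK3 on 204582_s_at ranks between 63.14 and 78.12 on the 22Rv1 and 22Rv1-DR arrays of replicates 1 and 2 and between 21.83 and 40.02 on the DU145 and DU145-DR arrays.

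Other genes induced by androgen formed a list of 52, of which 44 were on the smaller array and 38 were tested. In 22Rv1-DR 3 rose and 4 fell, and 31 did not pass, where 2.27% of all tested probe sets rose and 1.94% fell. The 3 largest changes were falls. SPDEF, an ETS factor of luminal epithelium, fell by 3.18 ± 0.281 (adjusted p = 0.000434; -1.91 on the third pair). AZGP1, a secreted glycoprotein, fell by 2.57 ± 0.384 (adjusted p = 0.00675; -2.11). HPGD, which inactivates prostaglandins, fell by 2.49 ± 0.175 (adjusted p = 0.000171; -1.47). The kinase STK39 also fell by 2.16 on replicates 1 and 2, and read 0.32 on the third pair. The protease gene ADAMTS1, the drug and prostanoid transporter ABCC4 and the kallikrein KLK11 rose. The list's median was -0.0337, beside 0.0115 for all probe sets tested. On the third pair it was -0.439 over 46 genes, beside 0.0199 for all, with 3 higher by 1 or more and 9 lower.

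In DU145-DR 5 genes of that list rose and 2 fell, where 4.77% and 4.69% of all tested probe sets did. The kinase SGK1 had a difference of 2.66 ± 0.361 (adjusted p = 0.00337, with 3.85 on the third arrays) and the glucocorticoid-induced TSC22D3 one of 1.46 ± 0.175 (0.00178; 0.82), while the retinal dehydrogenase ALDH1A3 fell by 2.50 ± 0.245 (0.000666; -2.69). The others were ADAMTS1, NDRG1 and INPP4B, which rose, and ABCC4, which fell. ADAMTS1 rose in both resistant lines, by 1.40 in DU145-DR and 2.47 in 22Rv1-DR, and ABCC4 fell by 1.07 in DU145-DR and rose in 22Rv1-DR, from 27.5 and 32.0 to 154.3 and 200.8. The list's median in DU145-DR was -0.0437, and -0.106 on the third pair. STK39, ADAMTS1, ABCC4, KLK11, NDRG1 and INPP4B are named here after their values were seen.

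**Figure D5:**
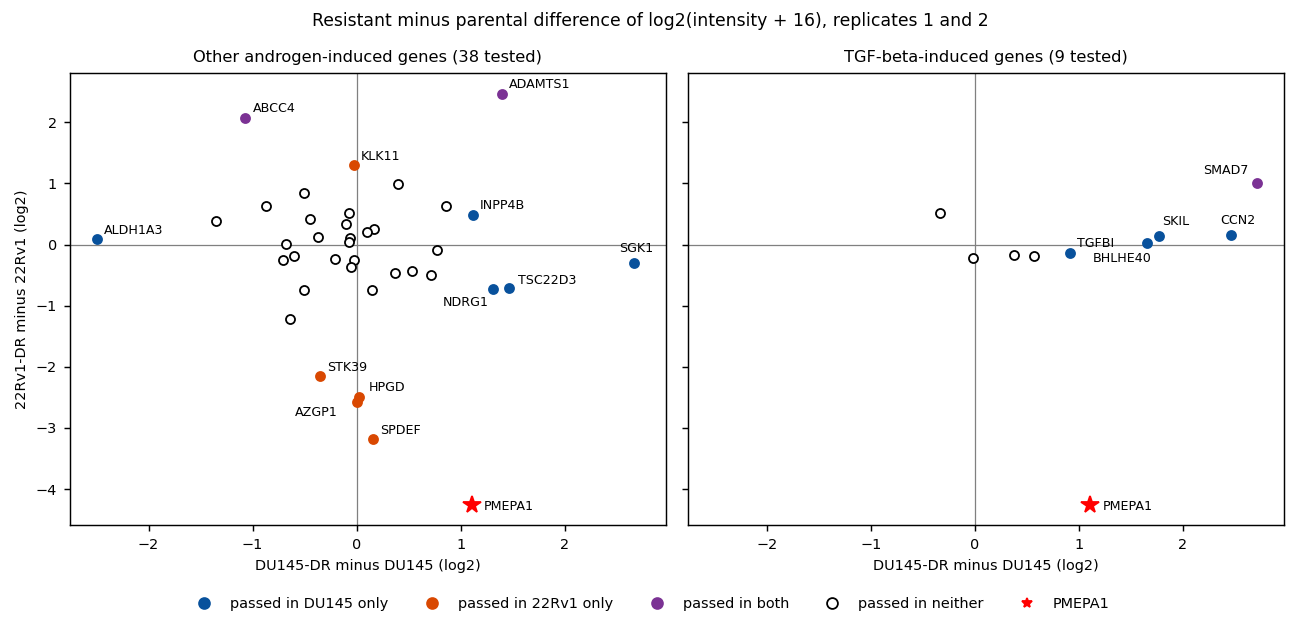
Difference in the DU145 pair (x axis) against the difference in the 22Rv1 pair (y axis) on the log2(intensity + 16) scale, replicates 1 and 2, 1 point per tested gene. The left panel shows 38 other androgen-induced genes and the right panel 9 TGF-beta-induced genes, with colours for the pairs in which the gene passed and PMEPA1 as a star in both. SPDEF, AZGP1, HPGD and STK39 lie low on the y axis, and SMAD7, CCN2 and SKIL lie to the right on the x axis.

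Receptor cofactors and pioneer factors, proteins that open chromatin for the receptor or bind it, had 15 tested genes. In DU145-DR the pioneer factor FOXA1 fell by 2.35 ± 0.196 (adjusted p = 0.00036; -3.91 on the third pair), the LIM-domain cofactor FHL2 fell by 1.16 ± 0.278 (0.0361; -2.81), and TGFB1I1, another LIM-domain cofactor, rose by 1.54 ± 0.237 (0.00636; 1.16). In 22Rv1-DR GATA2, a zinc-finger pioneer factor, rose by 1.79 ± 0.263 (0.00631; 1.76), and the other 14 did not pass. Of 12 chaperones of steroid receptors, DNAJA1 rose in DU145-DR by 1.06 ± 0.26 (limma, adjusted p = 0.0382, and 0.43 on the third pair). In 22Rv1-DR 0 of 12 passed, where 4.21% of all tested probe sets did.

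Of 9 tested genes of androgen synthesis and inactivation, AKR1C3, which makes testosterone from androstenedione, rose in DU145-DR by 4.05 ± 0.19 (adjusted p = 2.23e-05) and fell by 1.24 ± 0.19 in 22Rv1-DR (0.00781). The third pairs gave 0.31 and -0.11 for it. AKR1C2, a close paralog that probes may not tell apart from AKR1C3, rose in DU145-DR by 3.16 ± 0.288 (0.000513; 0.87 on the third pair). In 22Rv1-DR AKR1C2 did not pass (0.78 ± 0.288, adjusted p = 0.228; 3.30 on the third pair), with the opposite sign to AKR1C3. Of 3 other steroid receptors tested, 0 passed in either pair, where 4.21% of all tested probe sets passed in the 22Rv1 pair and 9.46% in the DU145 pair. The glucocorticoid receptor NR3C1 read 183.6 and 215.3 in 22Rv1, 302.3 and 315.2 in 22Rv1-DR, and 2557 to 4270 on the DU145 and DU145-DR arrays. In the 22Rv1 lines the third pair gave -1.15 for it, opposite in sign to replicates 1 and 2.

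TGF-beta-induced genes, listed because PMEPA1 belongs to both programmes, had 9 tested members. In DU145-DR 5 rose and 0 fell, where 4.77% and 4.69% of all did. They were SMAD7, an inhibitor of the pathway, by 2.71 ± 0.191 (adjusted p = 0.000144; 1.92 on the third pair), CCN2, a matricellular protein, by 2.47 ± 0.207 (0.00036; 2.06), and the SMAD repressor SKIL by 1.77 ± 0.244 (0.0038; 0.74), with BHLHE40 and TGFBI also past the threshold. TGFBI, a secreted matrix protein, rose by 0.92 on replicates 1 and 2 and read -1.40 on the third pair. BHLHE40, a transcriptional repressor, read 0.03 there. The list's median was 0.916 on replicates 1 and 2, beside -0.00781 for all probe sets tested. On the third pair it was 0.0297, beside -0.0209 for all, with 2 of the 9 genes higher by 1 or more and 2 lower. In 22Rv1-DR SMAD7 rose by 1.00 ± 0.191 (0.0213; 1.11) and the other 8 did not pass, with a median of 0.0329. In 22Rv1-DR PMEPA1 and SMAD7 thus passed in opposite directions.

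The gene families of the members were read as well. Of 9 kallikreins tested, KLK11 was the one that rose in 22Rv1-DR, with a difference of 1.30 ± 0.249 (adjusted p = 0.0218, and 2.94 on the third arrays), and 0 passed in DU145-DR. Of 13 FK506-binding proteins, FKBP5 was the one that passed in 22Rv1-DR, and in DU145-DR FKBP10 rose by 1.86 ± 0.215 (0.00146; 1.33) and FKBP11 fell by 1.75 ± 0.225 (0.00261; -0.66). In the STEAP family (2 tested), the TRPM family (3) and the type II transmembrane serine proteases (7), 0 passed in either pair. Of all tested probe sets 4.21% passed in the 22Rv1 pair and 9.46% in the DU145 pair, so 0 in lists this short says little about these families. STEAP1, a paralog of STEAP2, read 3397 and 3040 in 22Rv1 and 1479 and 1287 in 22Rv1-DR, without overlap and without passing (-1.21 ± 0.359).

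Markers of cell identity moved beside these genes, and their part in the results was not tested. Of 5 luminal prostate markers tested, 2 fell in 22Rv1-DR, KRT19 with a difference of -3.83 ± 0.313 (adjusted p = 0.000303) and CDH1 with -3.38 ± 0.23 (0.000162). In DU145-DR 4 fell, among them the adhesion gene CDH1 (-5.74 ± 0.23, limma, adjusted p = 1.37e-05), the keratin KRT19 (-3.70 ± 0.313, 0.000381) and EPCAM (-2.36 ± 0.215, 0.000513). Of all tested probe sets 1.94% fell in the 22Rv1 pair and 4.69% in the DU145 pair. The summed intensity of the 8 luminal markers was 13650 to 14610 in 22Rv1 and 8240 to 8438 in 22Rv1-DR, and 20010 to 23780 in DU145 and 8775 to 9051 in DU145-DR. The sum of 7 fibroblast markers rose from 189.2 and 189.3 in 22Rv1 to a range of 3010 to 4167 in 22Rv1-DR, where LUM alone had changed by 6.04 ± 0.232 (1.65e-05; 1.20 on the third pair). The sums of 6 leukocyte markers (150.5 to 168.8 in 22Rv1, 157.9 to 163 in 22Rv1-DR) and of 5 endothelial markers (88.23 to 93.89 and 76.27 to 93.54) overlapped. Those of 6 neuroendocrine markers (1533 to 1556 and 976.6 to 1094) and of 4 basal markers (286.4 to 293.9 and 423.6 to 454.1) did not. Of the 4 neuroendocrine and 3 basal genes tested, 0 passed in that pair, where 4.21% of all tested probe sets did. On the third pair 4 of 8 luminal markers were lower by 1 or more in 22Rv1-DR and 0 higher. Among them were MSMB (-3.17) and ACP3 (-1.12). Cells of another proportion and less RNA per cell cannot be told apart in such samples.

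The genes whose log2 values over the 8 arrays were most like those of KLK3 on 204582_s_at were EPS8L1 (Pearson r = 0.983), NOS3 (0.966), AP1G2 (0.962), SELENBP1 (0.961) and HOXB13 (0.958). The 8 arrays share 2 lines and 2 replicate numbers, so these values describe the order of the arrays and carry no p. All 5 were higher in 22Rv1 than in 22Rv1-DR within each replicate number. For replicates 1 and 2 this order largely follows from their choice by likeness to KLK3. HOXB13, a homeobox factor of the prostate, read 481.0 and 337.8 in 22Rv1, 266.9 and 216.8 in 22Rv1-DR and 41.1 to 78.2 on the DU145 and DU145-DR arrays. Among the other tested probe sets of the 8 genes, r with KLK3 was 0.844 and 0.788 for 2 KLK2 probe sets and -0.497 for the third, 0.226 for FKBP5, 0.104 for PMEPA1 and -0.718 for TRPM8. On the third arrays HOXB13 and SELENBP1 were lower in 22Rv1-DR than in 22Rv1 (634.7 to 256 and 2006 to 1017), and KLK3 was higher.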

How the data were processed

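The authors deposited a linear intensity per probe set, in 1 table of 8 arrays and 1 of 4. Per the submitters' processing notes MAS5 and RMA were used; their roles, versions and the background correction are not stated there. The log2 of the authors' values has 2 decimals. Probe sets with 1 gene symbol in the annotation were used (19064 and 41091), and those with several (1043 and 1801) or none (2108 and 11721), and 31 and 59 of Y-linked or X-inactivation genes, were left out. The gene of the androgen receptor itself is not reported here.

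Values were taken as log2(intensity + 16). Probe sets whose mean exceeded the 40th percentile (intensity 80.4) in no group were left out, and 14323 of the 8-array table were tested. The 8 arrays entered 1 limma fit (version 3.58.1, R 4.3.3; lmFit, eBayes, 4 groups, no block, 4 residual and 4.44 prior degrees of freedom; two-sided, Benjamini-Hochberg over all 14323). The number of arrays limits the precision. The third pair gave differences with no test.

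The 8 genes and the lists of related genes were chosen with earlier results of these data known. Every probe set of the 8 is reported. From each list up to 3 genes per comparison are named, those with the largest change past the threshold, and 5 genes by Pearson correlation with KLK3. List counts and medians use 1 probe set per gene. Alternatives were quantile normalization, arrays shifted to 1 median, pseudocounts of 1 and 64, a common floor, no filter and one at the 60th percentile, 1 probe set per gene, only the arrays compared, all 12 arrays with the table as a block, a replicate block and leaving out each array. Upstream sequences are from RefSeq on GRCh38.p14.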

Additional observations from a re-analysis of the deposited data

Results flagged for a closer look

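PMEPA1 changed differently in the lines. By the test of the difference itself, the change in the 22Rv1 pair minus that in the DU145 pair was -5.36 on the log2 scale (limma, adjusted p = 0.00491). The 22Rv1 pair gave -4.25 and the DU145 pair 1.10, and the third pairs gave -5.74 and 1.32 for the same probe set. The 22Rv1-DR values lay near the floor of their arrays, so the size depends on the constant added.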

How the results depend on the processing

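The fall of PMEPA1 in 22Rv1-DR passed under all 19 alternatives, with a difference from -5.03 to -3.11, and its difference between lines passed under all 18 that apply. FKBP5 in 22Rv1-DR kept its direction under all 18 alternatives that tested it and lost the call under 8, with an adjusted p from 0.008705 to 0.6698. The cause of these shifts was not tested.

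The count of changed probe sets moved as follows. Some settings also tested another number of probe sets, such as 13044 with quantile normalization in place of 14323. In the DU145 pair (1355) it was 2051 with quantile normalization, 504 with only the arrays compared, 552 with all 12 arrays, and 536 to 1825 without 1 array, where the lone array of a group is assumed to vary like the others. In the 22Rv1 pair (603) the same settings gave 914, 1445 and 266, and 246 to 1025 without 1 array. For the difference between lines (968) quantile normalization gave 1542 and 12 arrays 325, and 347 to 1491 without 1 array. Between the parental lines (11925 of 14323) quantile normalization gave 6536 of 13044, a shift to 1 median 6024 of 13015 and 12 arrays 7066 of 14323. With 1 probe set per gene 7849 of 9449 passed, a share near that of the main fit. With the shift to 1 median 3697 were higher and 2327 lower.

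Of the 8 probe sets tested, 2 passed in the 22Rv1 pair, and 1 with a pseudocount of 64 and with 12 arrays. The filter at the 60th percentile kept 5 probe sets of these genes, without that of FKBP5, and 1 passed. In the DU145 pair 0 passed, and 0 to 1 without 1 array. Between the parental lines 7 of 8 passed, where 83.3% of all did. With 1 probe set per gene 4 of 5 passed, where 7849 of 9449 of all did. With 12 arrays 4 of 8 passed, where 7066 of 14323 of all did. Without 1 array 3 to 7 of the 8 passed.

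The replicate numbers are shared across groups, and the labels do not say that they pair samples. Across probe sets, how far replicate 1 lay from the mean of its group correlated at 0.71 between DU145 and DU145-DR and at 0.792 between 22Rv1 and 22Rv1-DR, against 0.0812 to 0.115 across lines. With the replicate block 4902 probe sets passed in the DU145 pair, 2888 in the 22Rv1 pair and 4256 for the difference between lines. Of the 8 probe sets of androgen-regulated genes 7 passed in the 22Rv1 pair and 7 for the difference: KLK2 was higher by 0.42, 0.92 and 0.45 (adjusted p = 0.02677, 0.00299 and 0.03531), and KLK3 lower by values of -0.78 and -0.98 (0.008266 and 0.002636). The block changed no call of these 8 in the DU145 pair.

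Reversals were small values that had not passed, except 1: KLK2 on 209855_s_at between parental lines was 0.57 with quantile normalization and 0.56 with the shift to 1 median. In the DU145 pair KLK2 on 209854_s_at was 0.016 and 0.0093 under these, and KLK3 on 204582_s_at was -0.0020 with 12 arrays. The other reversals came from leaving out 1 array: in the DU145 pair the lowest and highest values were -0.44 and 0.41 for KLK2 on 209854_s_at, -0.38 and 0.24 on 209855_s_at, -0.44 and 0.12 on 210339_s_at, -0.45 and 0.56 for KLK3 on 204582_s_at, -0.42 and 0.092 on 204583_x_at, and -0.30 and 0.48 for TRPM8. In the 22Rv1 pair they were -0.0023 and 0.097 for TRPM8, whose difference between lines ranged from -0.43 to 0.35.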
